A study of Mus musculus with 9 samples.

Results

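Astrocytes are followed here through 34 genes, 13 that are known to be switched on in reactive astrocytes and 21 that mark astrocytes in general. The genes were taken by symbol from a given list, and each of the 34 is among the 20731 gene symbols of the count table. All 34 also passed the filter on low counts that left 14746 genes for testing.

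Astrocytes take up glutamate and potassium, couple to each other through gap junctions, supply neurons with metabolites and wrap the blood vessels of the brain with their endfeet. After injury they can become reactive, a state in which they make more intermediate filament protein and secrete acute-phase proteins, protease inhibitors and matrix proteins, in part through cytokine receptors that signal by STAT3. Several of the reactive genes, among them Vim, Cd44, Timp1, Nes and Hspb1, are also made by vessel cells, meningeal cells or microglia, so their levels in tissue do not come from astrocytes alone.

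The RNA came from the brains of 9 male C57BL/6J mice aged 8 to 10 weeks, 3 in each group, taken on day 2 after a thrombosis had been made in the superior sagittal sinus of every animal. The CVST group had the thrombosis alone. In the CVST_Ligation group the deep cervical lymph nodes, which drain the meninges, were ligated as well. The CVST_Ligation_4_PBA group had both operations and 100 mg/kg of 4-phenylbutyric acid (4-PBA), an inhibitor of endoplasmic reticulum stress, which the methods place 30 min before modelling and the series description places after the ligation. No library without thrombosis is among the 9, so a level before injury cannot be read from them. The labels name the tissue as brain and the series description names cortex.

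The counted reads were 24166917, 22574739 and 19392081 in the CVST libraries, 24157584, 18835705 and 23358349 in CVST_Ligation, and 18100739, 23623769 and 25091498 in CVST_Ligation_4_PBA, each in the order of replicates 1, 2 and 3, which is kept for all values that follow. Levels are given as CPM, counts scaled to the same library total with edgeR's TMM factors. A floor of 3 counts corresponded to 0.114 to 0.163 CPM and covers counting error only. The smallest count behind a member was 4, for Steap4 in CVST replicate 3, followed by 8, for Timp1 in CVST_Ligation_4_PBA replicate 1. In bulk tissue, fewer cells of a type and less RNA per cell cannot be told apart.

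Before the comparisons, 4 libraries have to be named for their place in these genes. CVST_Ligation_4_PBA replicate 3 held the highest level of 9 of the 13 reactive genes, and CVST_Ligation_4_PBA replicate 1 the lowest level of 7 of the 13, with median deviations from the mean of all libraries of 1.14 and -1.08 on the log2 scale. Both extremes lay within that group for Gfap, Vim, Serpina3n, Timp1, Hspb1 and Nes. CVST_Ligation replicate 2 held the highest level of 13 of the 21 identity genes, and CVST replicate 1 the lowest level of 12 of the 21. CVST_Ligation replicate 2 also carried the genes of the cerebellum, with a summed level of 869.1 CPM against 27.4 to 84.4 CPM in the other libraries. Counts and medians of the 34 genes are given with and without CVST_Ligation replicate 2 and CVST_Ligation_4_PBA replicate 3, a choice made after seeing the data. CVST_Ligation_4_PBA replicate 1, which was nearly as far off on the low side, was left out by itself only.

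Per length, the identity genes were the more abundant set. On the scale of FPKM (fragments per kilobase of the gene and per counted reads of the library) the mean level over the 9 libraries was 1504 ± 317 (SD, n = 9) for Sparcl1, a secreted matrix protein, 1086 ± 248 for Glul, the glutamine synthetase, 974 ± 362 for Aldoc, a glycolytic aldolase, and 862 ± 64 for Clu, the secreted chaperone clusterin. Gfap, the main intermediate filament of astrocytes, was the most abundant reactive gene at 573 ± 295 FPKM and ranked 5 of the 34. It was followed by 507 ± 227 FPKM for Ndrg2, 446 ± 157 FPKM for Atp1b2 and 324 ± 152 FPKM for S100b. Vim at 257 ± 130.2 FPKM and Serpina3n at 221 ± 233 FPKM came next. The lowest means were 8.36 ± 3.57 FPKM for Cp, 5.94 ± 6.81 FPKM for Thbs4, 5.05 ± 2.19 FPKM for Osmr and 0.688 ± 0.531 FPKM for Steap4. Neighbours in this order differed by less than the larger of their SDs over the 9 libraries, except between Sparcl1 and Glul, between Fgfr3 (41 FPKM) and Slc4a4 (21.4 FPKM), and between Osmr and Steap4. The other means, in falling order, were 164 FPKM for Slc1a3, 129 for Ttyh1, 112 for Gja1, 112 for Mlc1, 89.8 for Fabp7, 85.9 for Slc1a2, 84.1 for Acsbg1, 73.4 for Id3, 72.7 for Ntsr2, 69.2 for Gjb6, 63.1 for Hspb1, 51.8 for Aldh1l1 and 43 for Timp1. Below Slc4a4 stood S1pr3 at 20.8, Nes at 14.2, Sox9 at 12.4, Cd44 at 11.7 and Lcn2 at 9.34 FPKM.

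Among the filament genes, Gfap measured 792, 1216 and 608 CPM in CVST, 764, 799.8 and 665 CPM in CVST_Ligation and 353, 418 and 1621 CPM in CVST_Ligation_4_PBA. Its highest and its lowest library both had 4-PBA, and the groups overlapped in every comparison. Vim, the filament protein shared by astrocytes, vessel cells and other cells, measured 453, 429 and 507 CPM in CVST, 276, 269.9 and 266 CPM in CVST_Ligation and 78.4, 268 and 687 CPM in CVST_Ligation_4_PBA. All 3 CVST_Ligation libraries lay below all 3 CVST libraries and within a narrow range, while the CVST_Ligation_4_PBA libraries spanned a factor of 8.76. Nes, a filament protein of neural progenitors that reactive astrocytes can make again, ranged over 39.7 to 157 CPM, with its extremes in CVST_Ligation_4_PBA replicates 1 and 3.

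The secreted proteins of reactive astrocytes include the reactive genes of the widest spread within groups, Timp1, and of the narrowest, Cp. Serpina3n, a serine protease inhibitor of the acute phase, measured 280.4, 381 and 176 CPM in CVST, 155, 156 and 196 CPM in CVST_Ligation and 49, 104 and 969.5 CPM in CVST_Ligation_4_PBA. Lcn2, a lipocalin that binds iron-carrying siderophores, measured 1.36, 23.2 and 3.04 CPM in CVST, 0.868, 5.21 and 1.93 CPM in CVST_Ligation and 1.68, 4.54 and 29 CPM in CVST_Ligation_4_PBA. Its high libraries were CVST replicate 2 and CVST_Ligation_4_PBA replicate 3, and the groups overlapped for both genes. Timp1, an inhibitor of matrix metalloproteinases, measured 28.9, 31.9 and 25.9 CPM in CVST, 15.2, 13.1 and 37.3 CPM in CVST_Ligation and 0.433, 4.97 and 79.3 CPM in CVST_Ligation_4_PBA. The largest and smallest Timp1 levels, both with 4-PBA, differed by a factor of 183, the widest range of the 34 genes. Thbs4, a thrombospondin of the extracellular matrix, measured 13.3, 16.9 and 17.4 CPM in CVST, 7.15, 3.2 and 19.2 CPM in CVST_Ligation and 7.75, 3.62 and 64.4 CPM in CVST_Ligation_4_PBA. It was high in CVST_Ligation_4_PBA replicate 3 alone, and its groups overlapped. Cp, the copper-binding ferroxidase ceruloplasmin, measured 19.4, 28.5 and 13.4 CPM in CVST, 21.1, 37.6 and 18.1 CPM in CVST_Ligation and 23.8, 47.5 and 37.5 CPM in CVST_Ligation_4_PBA. The CVST_Ligation_4_PBA libraries were on the high side of Cp, and CVST replicate 2 and CVST_Ligation replicate 2 reached into their range.

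Of the receptors and other reactive genes, Osmr, a subunit of the oncostatin M receptor that signals with gp130, measured 17.9, 19.5 and 7.7 CPM in CVST, 17.3, 8.25 and 18.6 CPM in CVST_Ligation and 7.75, 10.5 and 24.6 CPM in CVST_Ligation_4_PBA. The 3 groups covered nearly the same range of Osmr levels. Cd44, the hyaluronan receptor, ranged over 4.23 to 72.2 CPM and S1pr3, a receptor for sphingosine 1-phosphate, over 6.29 to 47.5 CPM, both with the highest level in CVST replicate 1. Hspb1, a small heat shock protein, ranged over 14.4 to 75 CPM. Steap4, a metalloreductase, ranged over 0.217 to 2.22 CPM and was near the floor in several libraries.

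Mice of the same group differed more in the reactive genes than in most genes, and most of all with 4-PBA. The SD within groups, on the log2 scale of CPM, had a median of 1.05 over the 13 reactive genes (0.52 for Cp to 1.92 for Timp1), 0.36 over the 21 identity genes (0.12 for Id3 to 0.72 for Slc4a4) and 0.28 over all 14746 genes. In the median, a reactive gene had a larger SD within groups than 98.5% of the genes tested, and an identity gene a larger one than 64.4%. These values pool the groups. By group, the median SD of the reactive genes was 0.65 in CVST, 0.62 in CVST_Ligation and 1.28 in CVST_Ligation_4_PBA, against 0.27, 0.25 and 0.19 over all genes and 0.36, 0.37 and 0.19 over the identity genes. The summed level of the 13 reactive genes was 1909, 2288 and 1473 CPM in CVST, 1400.0, 1374 and 1452 CPM in CVST_Ligation and 588, 1001 and 3829.8 CPM in CVST_Ligation_4_PBA. The sum of the 21 identity genes was 6681, 8973 and 7831 CPM in CVST, 8716, 13037 and 8870.3 CPM in CVST_Ligation and 10478, 9582 and 9255 CPM in CVST_Ligation_4_PBA.

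**Figure D1:**
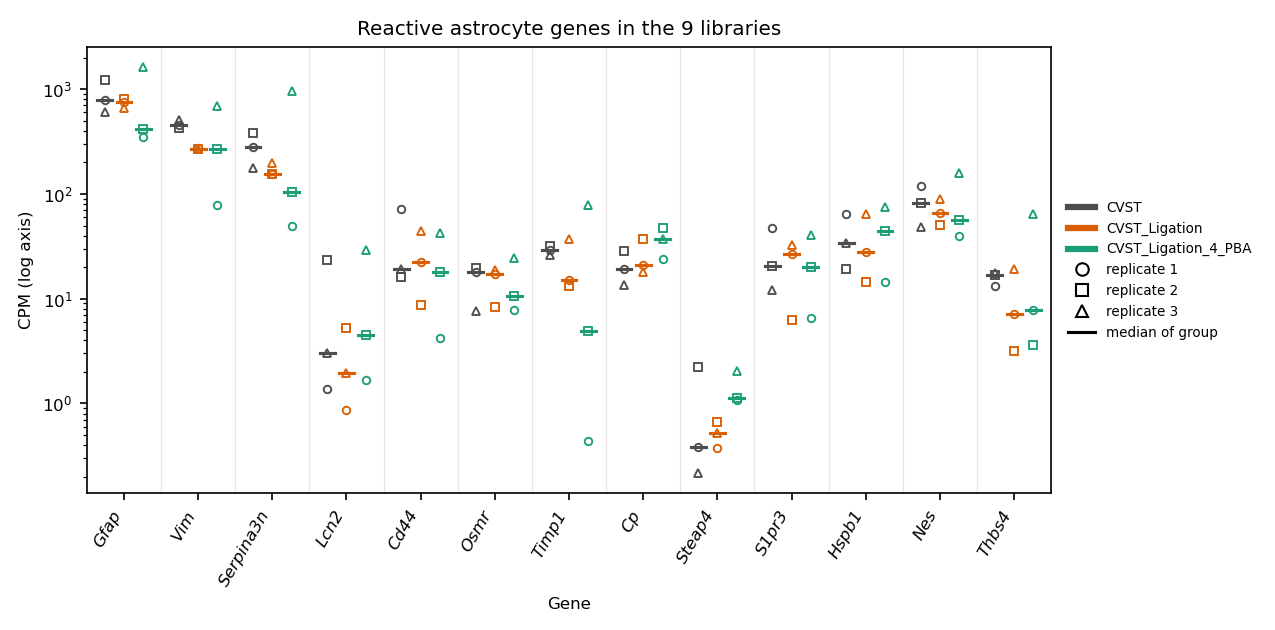
CPM of the 13 reactive genes in each library on a log axis, with 1 symbol per replicate, colours for the groups and a bar at each group's median. CVST_Ligation_4_PBA replicate 3 (triangle) is the highest library for 9 of the genes, and Timp1 spans 0.433 to 79.3 CPM within that group.

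Among the identity genes, the glutamate cycle was led by Glul, which ranged over 904 to 1706 CPM with its highest level in CVST_Ligation replicate 2. Slc1a3, a glutamate transporter of astrocytes, measured 215, 269.5 and 188 CPM in CVST, 327, 385 and 261 CPM in CVST_Ligation and 307, 282 and 254 CPM in CVST_Ligation_4_PBA. CVST_Ligation replicates 1 and 2 were above all CVST libraries, and CVST_Ligation replicate 3 was below CVST replicate 2. Slc1a2, the main glutamate transporter of the forebrain, measured 181, 171 and 115 CPM in CVST, 217, 133 and 132 CPM in CVST_Ligation and 174, 132 and 130.2 CPM in CVST_Ligation_4_PBA. Its highest library was CVST_Ligation replicate 1 and its lowest CVST replicate 3, with overlap of the groups in all comparisons.

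Of the metabolic enzymes, Aldoc measured 486, 956 and 833 CPM in CVST, 949, 1859.6 and 949.9 CPM in CVST_Ligation and 1221, 1107 and 1123 CPM in CVST_Ligation_4_PBA. CVST replicate 1 was the lowest library, CVST_Ligation replicate 2 the highest, and CVST_Ligation_4_PBA lay above CVST in all 3 libraries. Aldh1l1, an enzyme of folate metabolism often used as an astrocyte marker, measured 135, 229 and 171 CPM in CVST, 107, 148 and 107 CPM in CVST_Ligation and 92.3, 112 and 162 CPM in CVST_Ligation_4_PBA. Unlike most identity genes, Aldh1l1 was highest in a CVST library, with 2 of the CVST_Ligation libraries below all CVST libraries and CVST_Ligation replicate 2 within their range. Acsbg1, an acyl-CoA synthetase, ranged over 105 to 319 CPM, and Fabp7, a fatty acid binding protein, over 21.6 to 100.3 CPM.

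The next genes serve ion transport and membrane domains. Atp1b2, a subunit of the sodium pump, measured 274, 388 and 287 CPM in CVST, 373, 728 and 359.8 CPM in CVST_Ligation and 408, 387 and 458 CPM in CVST_Ligation_4_PBA. Slc4a4, a sodium bicarbonate cotransporter, measured 46, 73.6 and 21 CPM in CVST, 86.8, 163 and 50.1 CPM in CVST_Ligation and 108, 85.7 and 80.7 CPM in CVST_Ligation_4_PBA. In both genes CVST_Ligation replicate 2 was the highest library and CVST_Ligation replicates 1 and 3 were closer to the CVST libraries. The connexins of astrocyte gap junctions ranged over 41.9 to 199.6 CPM for Gja1 and 22.8 to 87.2 CPM for Gjb6, both lowest in CVST replicate 1 and highest in CVST_Ligation replicate 2. Mlc1, a membrane protein of perivascular endfeet, ranged over 99.9 to 165 CPM and Ttyh1, of the tweety family of anion channels, over 148 to 217 CPM.

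Of the secreted, signalling and regulatory genes, Sparcl1 measured 2172, 2725 and 2446 CPM in CVST, 2793, 4142 and 3080.1 CPM in CVST_Ligation and 3279.6, 2953 and 2729 CPM in CVST_Ligation_4_PBA. Ndrg2, a gene of the N-myc downstream-regulated family that marks astrocytes, measured 241, 418 and 327 CPM in CVST, 511, 966 and 430.3 CPM in CVST_Ligation and 838, 649 and 649 CPM in CVST_Ligation_4_PBA. For both Sparcl1 and Ndrg2 all CVST_Ligation libraries and all CVST_Ligation_4_PBA libraries lay above all CVST libraries. Ntsr2, a neurotensin receptor of astrocytes, measured 30.7, 69.5 and 81.9 CPM in CVST, 83.1, 125 and 87.5 CPM in CVST_Ligation and 123, 117 and 94.8 CPM in CVST_Ligation_4_PBA. It too was higher in all 6 ligated mice than in the 3 CVST mice, by a narrow margin between CVST replicate 3 and CVST_Ligation replicate 1. How many of all genes tested separate the 6 ligated mice from the CVST mice in this way was not counted. Id3, an inhibitor of DNA-binding transcription factors, measured 23.1, 28.3 and 26.7 CPM in CVST, 22.5, 22.4 and 23.3 CPM in CVST_Ligation and 26.3, 32 and 30.7 CPM in CVST_Ligation_4_PBA. The CVST_Ligation_4_PBA libraries of Id3 lay above all CVST_Ligation libraries and overlapped CVST. S100b, a calcium-binding protein, ranged over 59 to 175 CPM. Clu, Fgfr3 (a growth factor receptor) and Sox9 (a transcription factor of glial cells) ranged over 1249 to 1577 CPM, 93.6 to 123 CPM and 14.3 to 28 CPM.

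**Figure D2:**
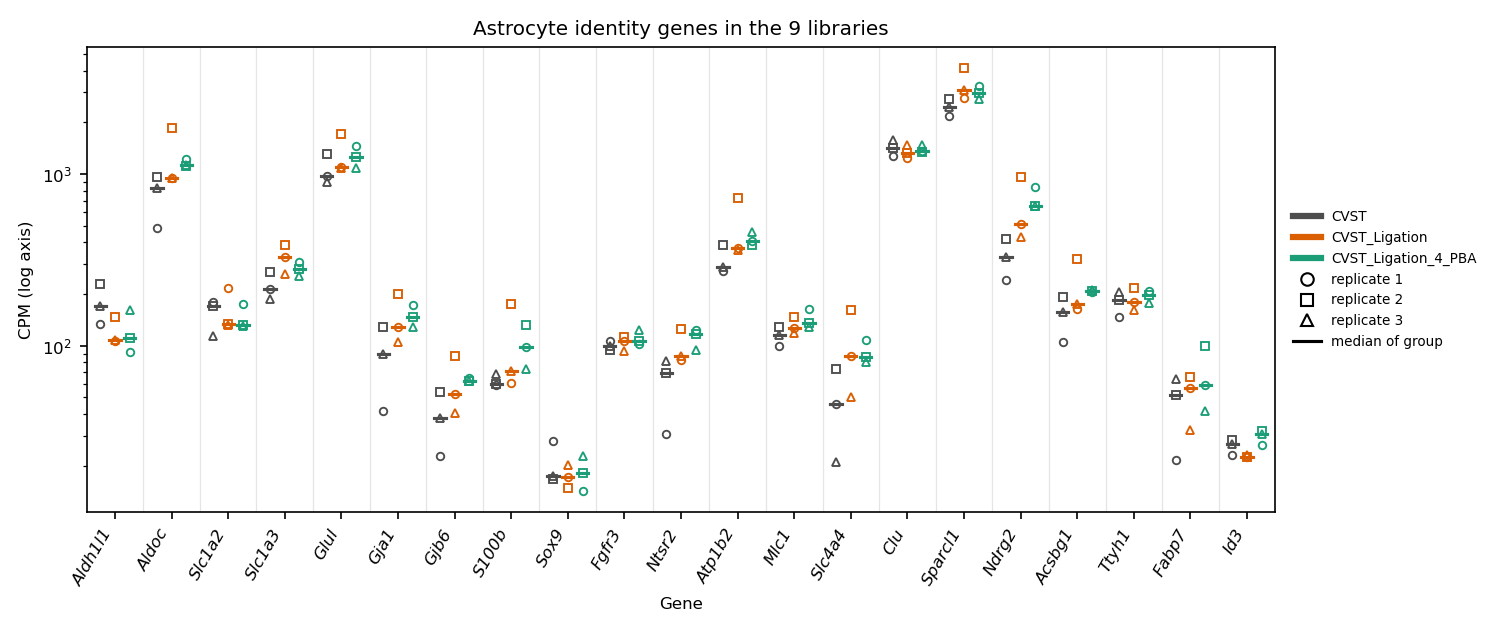
CPM of the 21 identity genes in each library on a log axis, with 1 symbol per replicate, colours for the groups and a bar at each group's median. CVST_Ligation replicate 2 (square) is the highest library for 13 of the genes, and Ndrg2 lies higher in all 6 ligated mice than in the CVST mice, where it reaches 418 CPM.

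The comparison of CVST_Ligation with CVST sets thrombosis with ligation of the lymph nodes against thrombosis alone. The groups also differed in genes of brain regions, with midbrain dopamine neuron genes at sums of 17.9 to 19.5 CPM in CVST and 166 to 204 CPM in CVST_Ligation. Ligation and the regional make-up of the tissue cannot be told apart in these values. The reactive genes were on the low side after ligation and the identity genes on the high side, with wide errors. The median log2 fold change was -0.40 over the 13 reactive genes and 0.45 over the 21 identity genes, against 0.002 over all genes tested, and 12 of the 13 reactive genes were below 0 while 17 of the 21 identity genes were above 0. These directions were the same with DESeq2's size factors and with total counts in place of TMM. In edgeR's quasi-likelihood test none (0) of the 34 genes passed an adjusted p of 0.05, against 0.0203% of all genes tested, and the smallest adjusted p was 0.381, for Ndrg2. DESeq2 also called 0 members after adjustment, where 1.79% of all genes tested passed in DESeq2. At an unadjusted p below 0.05 edgeR gave 6 of the 34 genes, all 6 higher and all from the identity genes. At that level 5.47% of all genes tested were higher and 4.18% lower. DESeq2 gave 8 members, 7 higher and 1 lower, beside 6.41% and 4.96% of all genes tested. None (0) of the reactive genes reached that level in edgeR's main fit. With only the compared groups in the model Vim and Serpina3n reached it, both lower. That model gave 3 members higher and 3 lower, beside 4.31% and 3.91% of all genes tested.

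The 6 genes were Ndrg2, Slc1a3, Sparcl1, Aldoc, Atp1b2 and Slc4a4. The log2 fold change of Ndrg2 after ligation was 0.95, with a standard error of 0.31 (unadjusted p = 0.0119). Slc1a3 had 0.53 (standard error 0.18, unadjusted p = 0.0147, adjusted p = 0.405) and Sparcl1 had 0.45 (standard error 0.17, unadjusted p = 0.0249, adjusted p = 0.432). These 3 encode a marker of astrocyte membranes and cytoplasm, a glutamate transporter and a matrix protein. Aldoc had 0.72 (standard error 0.30, unadjusted p = 0.0393, adjusted p = 0.494) and Atp1b2 had 0.62 (standard error 0.27, unadjusted p = 0.0425, adjusted p = 0.502). The largest log2 fold change of the 6 was that of Slc4a4, 1.09 (standard error 0.48, unadjusted p = 0.0464, adjusted p = 0.515). Among these 6 genes the groups did not overlap for Ndrg2 and Sparcl1, and among the other members for Vim and Ntsr2. So 3 of the 34 were higher and 1 lower without overlap, where 6.61% of all genes tested were higher and 7.21% lower in that way, in total near the share of the members.

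These values rest on single libraries. Without CVST_Ligation replicate 2 the median of the identity genes was 0.16 in place of 0.45, and 1 of the 6 genes, Ndrg2, stayed at an unadjusted p below 0.05, while Aldh1l1, lower, came in, where 4.65% of all genes tested were higher and 3.42% lower in that fit. In that setting the log2 fold change was 0.51 for Ndrg2, 0.32 for Aldoc, 0.21 for Atp1b2, 0.54 for Slc4a4, 0.39 for Slc1a3 and 0.26 for Sparcl1. The count was also 2 without CVST replicate 3 (5.15% of all genes higher, 5.09% lower) and 3 without CVST replicate 1 (4.93% higher, 3.5% lower). It was 9, all higher, without CVST replicate 2 (5.05% of all genes higher, 3.48% lower) or CVST_Ligation replicate 3 (6.53% and 4.56%). Without CVST_Ligation replicate 1 it was 7, all higher (5.35% and 3.06%). Ndrg2 stayed below 0.05 before adjustment in all 6 of these fits. For the reactive genes the median was -0.14 without CVST_Ligation replicate 2, -0.63 without CVST replicate 3 and -0.84 without CVST_Ligation replicate 3. With CVST_Ligation replicate 2 and CVST_Ligation_4_PBA replicate 3 both left out, 1 member, Aldh1l1, was at an unadjusted p below 0.05, and it was lower, where 4.57% of all genes tested were higher and 4.14% lower in that fit and 0.0405% passed adjustment.

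For the filament and secreted proteins most used as signs of reactivity, the errors were of the size of the differences. Gfap differed by -0.23 on the log2 scale (standard error 0.52, adjusted p = 0.901), which became 0.088 without CVST replicate 2. Vim had -0.77 (standard error 0.56, adjusted p = 0.677), between -0.82 and -0.72 whichever library was left out. Although the Vim groups did not overlap, the model gave an unadjusted p = 0.201, with the spread shared by all 3 groups. In 1 of 16 alternatives, the model of only the compared groups, Vim and Serpina3n were below 0.05 before adjustment. Over all alternatives the adjusted p of Vim was 0.286 or higher and that of Serpina3n 0.559 or higher. Serpina3n had -0.72 (standard error 0.87, adjusted p = 0.799), and -0.43 without CVST replicate 2. Lcn2 had -1.80 (standard error 1.24, adjusted p = 0.664), which turned to 0.28 without CVST replicate 2 and was -2.73 without CVST_Ligation replicate 2. The glutamate transporter gene Slc1a2 had 0.047 (standard error 0.24, adjusted p = 0.959), and -0.15 without CVST replicate 3 or -0.24 without CVST_Ligation replicate 1. Aldh1l1 had -0.56 (standard error 0.25, unadjusted p = 0.0532, adjusted p = 0.517). Its unadjusted p was below 0.05 without CVST replicate 1 (-0.73) and without CVST_Ligation replicate 2 (-0.74), and its log2 fold change was -0.34 without CVST replicate 2.

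The comparison of CVST_Ligation_4_PBA with CVST_Ligation sets ligated mice with the inhibitor against ligated mice without it. Hypothalamic genes also differed, with sums of 5.36 to 56.3 CPM in CVST_Ligation and 297 to 579 CPM with 4-PBA. The inhibitor and the regional make-up of the tissue cannot be told apart here. The reactive genes were higher in the mean of the treated mice and the identity genes near 0, and the height of the reactive genes came with 1 library. The median log2 fold change was 0.35 over the reactive genes and 0.049 over the identity genes, against -0.017 over all genes tested, with 11 of 13 and 12 of 21 genes above 0. Without CVST_Ligation_4_PBA replicate 3 the reactive median was -0.69, without CVST_Ligation_4_PBA replicate 1 it was 0.77, and without CVST_Ligation replicates 2 or 3 it was 0.18 or 0.53. The identity median was 0.22 without CVST_Ligation replicate 2, -0.13 without CVST_Ligation replicate 3, 0.026 without CVST_Ligation_4_PBA replicate 1, 0.0009 without CVST_Ligation replicate 1 and 0.0032 without CVST_Ligation_4_PBA replicate 3. After adjustment edgeR called 0 members, and 0% of all genes tested. DESeq2 called 0 members too, and 0.149% of all genes tested.

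At an unadjusted p below 0.05 edgeR and DESeq2 each gave 1 member, Id3, higher with 4-PBA. In edgeR 1.81% of all genes tested were higher and 1.42% lower, and in DESeq2 2.16% and 1.7%. For Id3 the log2 fold change came to 0.39, with a standard error of 0.14 (unadjusted p = 0.0245, adjusted p = 0.9998), and the groups of Id3 and of Steap4 did not overlap, both higher with 4-PBA, where 3.51% of all genes tested were higher and 4.22% lower without overlap. Without CVST_Ligation replicate 1 or CVST_Ligation_4_PBA replicate 2 the number was 0. It was 4 without CVST_Ligation replicate 2 (Cp, Id3, S100b and Ndrg2, all higher), where 5.37% of all genes tested were higher and 4.64% lower in the same fit. It was 3 without CVST_Ligation_4_PBA replicate 1 (Vim, Id3 and Serpina3n, all higher), beside 2.3% of all genes higher and 1.04% lower. It was also 3 without CVST_Ligation_4_PBA replicate 3, and those genes, Timp1, Gfap and Serpina3n, were all lower, beside 2.16% of all genes higher and 1.83% lower. So Serpina3n was higher or lower with 4-PBA according to which treated mouse was left out. With both CVST_Ligation replicate 2 and CVST_Ligation_4_PBA replicate 3 left out, 7 members had an unadjusted p below 0.05. Then 5 were lower (Timp1, Gfap, Thbs4, Serpina3n and Osmr) and 2 higher (S100b and Ndrg2), and the reactive median was -0.88. In that fit 5.46% of all genes tested were higher, 4.53% lower and 0.00674% past adjustment.

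The comparison of CVST_Ligation_4_PBA with CVST sets the treated mice against thrombosis alone, and it shares its CVST libraries with the first comparison and its treated libraries with the second. The identity genes were higher by a median log2 fold change of 0.33, with 17 of 21 above 0, and the reactive genes had a median of 0.017, with 7 of 13 above 0, against -0.008 over all genes tested. The reactive median changed sign or size with the library left out. It was -1.18 without CVST_Ligation_4_PBA replicate 3, 0.57 without CVST_Ligation_4_PBA replicate 1, 0.24 without CVST_Ligation_4_PBA replicate 2, and 0.30, 0.18 and -0.11 without CVST replicates 1, 2 and 3. The identity median was 0.49 without CVST replicate 2 and 0.23 without CVST replicate 1.

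After adjustment edgeR called 0 of the 34 members, against 0.122% of all genes tested, with the smallest adjusted p = 0.135 for Ndrg2. DESeq2 called 1 member, Ndrg2, which was higher, where 5.8% of all genes tested passed adjustment in DESeq2. Over all alternatives the adjusted p of Ndrg2 ranged from 0.0144 to 0.363. At an unadjusted p below 0.05 edgeR gave 3 members (DESeq2 6), all higher, where 8.07% of all genes tested were higher and 7.33% lower. The shares in DESeq2 were 9.36% and 8.28%. The log2 fold change of Ndrg2 in treated mice was 1.11, with a standard error of 0.31 (unadjusted p = 0.00505), and its level was higher in 3 of 3 treated mice than in any CVST mouse. Ntsr2 had 0.88 (standard error 0.32, unadjusted p = 0.0216, adjusted p = 0.23), and 0.57 without CVST replicate 1. It was no longer below 0.05 before adjustment without CVST_Ligation_4_PBA replicate 1 (0.82). Cp, the only reactive gene of the 3, had 0.83 (standard error 0.37, unadjusted p = 0.0495, adjusted p = 0.323). Cp lost that level without CVST replicate 1 (0.80), CVST replicate 3 (0.59), CVST_Ligation_4_PBA replicate 2 (0.59) or CVST_Ligation_4_PBA replicate 3 (0.80).

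The number of members at an unadjusted p below 0.05 in this comparison was 10 without CVST replicate 2 and all of them were higher, where 7.92% of all genes tested were higher and 6.23% lower in that fit. It was 2 without CVST replicate 3, without CVST_Ligation_4_PBA replicate 1 or without CVST_Ligation_4_PBA replicate 2, in fits with 7.66%, 5.94% and 5.58% of all genes higher and 8.65%, 4.2% and 5.15% lower. Without CVST_Ligation_4_PBA replicate 3 it was 7, with Vim, Timp1, Aldh1l1, Gfap and Serpina3n lower and Ndrg2 and Ntsr2 higher, beside 8.32% of all genes higher and 7.37% lower. With CVST_Ligation replicate 2 left out as well it was 15, of which 9 were higher and 6 lower, and 3 members then passed the adjusted threshold, S100b and Ndrg2 higher and Serpina3n lower. That fit called more of all genes too, with 10.5% higher, 9.46% lower and 3.89% past adjustment. Both libraries were picked after seeing the data, and CVST_Ligation_4_PBA replicate 3 held the highest Serpina3n level (969.5 CPM). The direction of Serpina3n therefore rests on that choice. In the main fit its log2 fold change against CVST was 0.42 (standard error 0.86, adjusted p = 0.863 in edgeR). The groups did not overlap for Aldoc, Gjb6, S100b, Ntsr2, Slc4a4, Sparcl1, Ndrg2 and Acsbg1, all of them identity genes and all higher with 4-PBA, 8 of the 34, where 12.3% of all genes tested were higher and 11.5% lower without overlap.

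**Figure D3:**
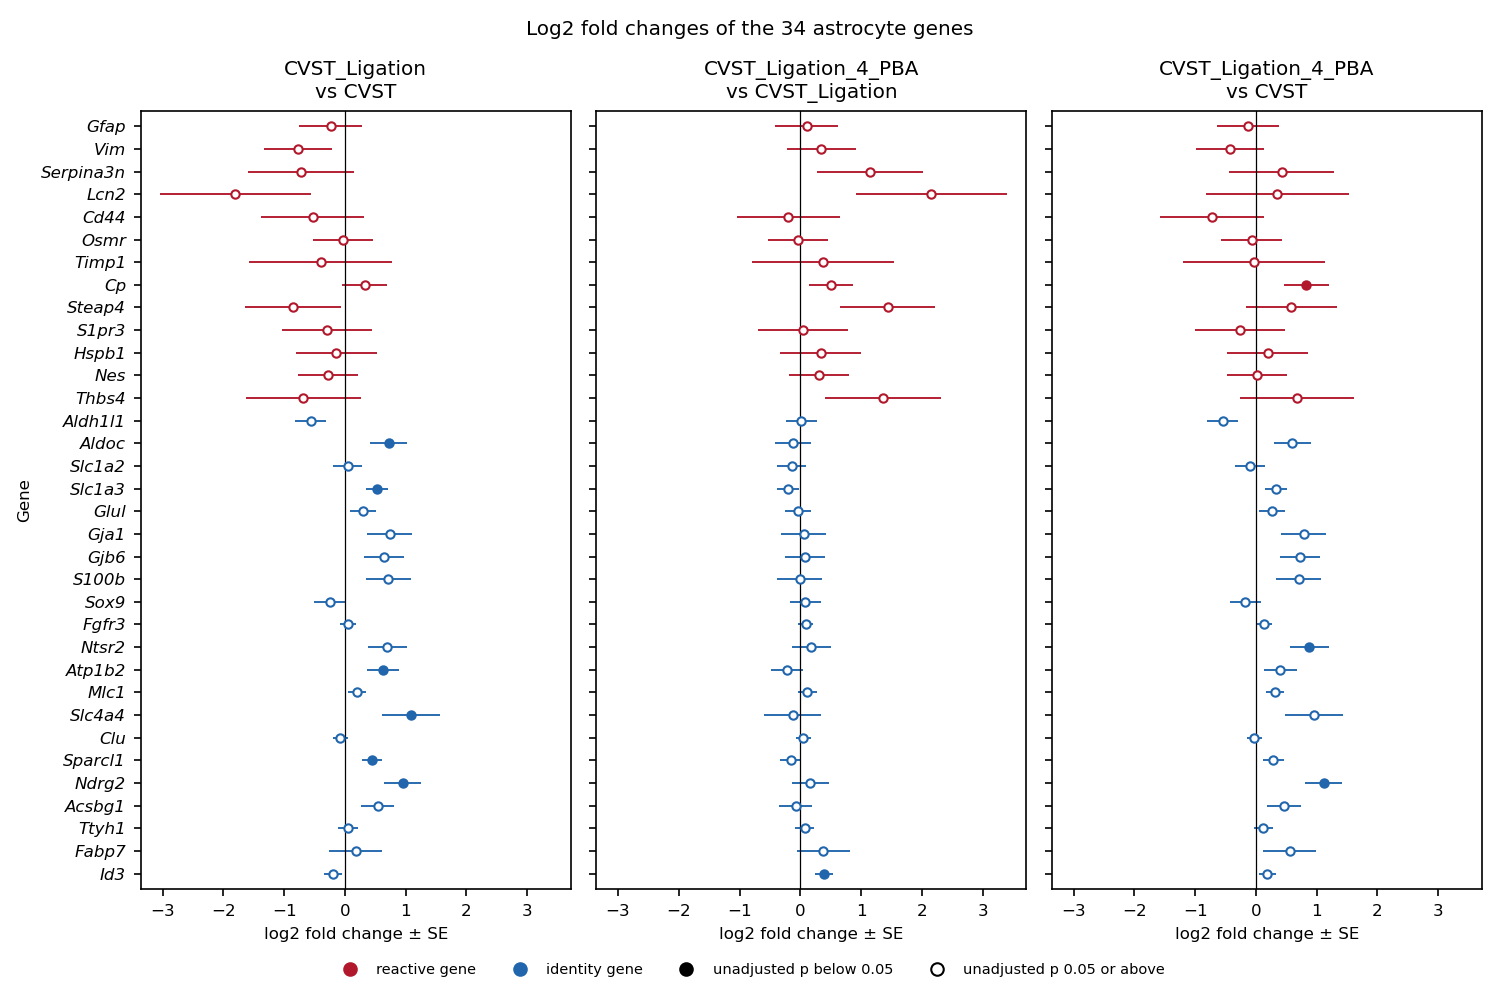
Log2 fold change of each of the 34 genes in the 3 comparisons, with bars of 1 standard error from edgeR and filled points where the unadjusted p is below 0.05. In CVST_Ligation vs CVST the 6 filled points are identity genes to the right of 0, and the reactive genes carry the wider bars.

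Further genes of the same biology were read from lists that hold none of the 34. Their counts are to be set against the shares of all genes tested at an unadjusted p below 0.05, which in CVST_Ligation vs CVST, CVST_Ligation_4_PBA vs CVST_Ligation and CVST_Ligation_4_PBA vs CVST were 5.47%, 1.81% and 8.07% higher and 4.18%, 1.42% and 7.33% lower. For counts without CVST_Ligation replicate 2 those shares were 4.65% higher and 3.42% lower in CVST_Ligation vs CVST, and 5.37% and 4.64% in CVST_Ligation_4_PBA vs CVST_Ligation. For counts without CVST_Ligation_4_PBA replicate 3 they were 2.16% and 1.83% in CVST_Ligation_4_PBA vs CVST_Ligation, and 8.32% and 7.37% in CVST_Ligation_4_PBA vs CVST. No share of all genes was counted for genes that lay higher or lower in all ligated mice than in the CVST mice. Of 18 other pan-reactive genes, none (0) was past an unadjusted p of 0.05 in edgeR in CVST_Ligation vs CVST, with a median log2 fold change of -0.38 and Synm, S100a6 and Cxcl10 at the smallest p. In CVST_Ligation_4_PBA vs CVST_Ligation 1 was higher, the chemokine gene Ccl2, with a median of 0.37 and Anxa2 and Cxcl10 next. Ccl2 measured 1.06, 2.44 and 0.542 CPM in CVST, 0.0827, 0.979 and 0.615 CPM in CVST_Ligation and 0.379, 2.65 and 10.9 CPM in CVST_Ligation_4_PBA, with its highest level in CVST_Ligation_4_PBA replicate 3, and was not past that threshold without it (1.47, unadjusted p = 0.191). In CVST_Ligation_4_PBA vs CVST 1 was higher, Synm, a filament protein that assembles with Gfap and Vim, and the median was 0.17, with Ccl2 and Anxa2 next. Synm measured 35.5, 38.6 and 32.4 CPM in CVST, 51, 48.5 and 43.5 CPM in CVST_Ligation and 56.8, 82.6 and 35.6 CPM in CVST_Ligation_4_PBA, and differed by 0.72 on the log2 scale (standard error 0.26, adjusted p = 0.225). Without CVST_Ligation_4_PBA replicate 3 the medians of these 18 genes turned to -0.16 against CVST_Ligation, with 1 higher and 1 lower, and to -0.50 against CVST, with 1 higher (Synm) and 3 lower (Socs3, Aspg and Cebpd).

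The A1-type and A2-type lists name genes that were set apart by the kind of injury, inflammatory or ischaemic, in earlier work on mouse astrocytes. Of the A1-type genes 11 of 12 were tested, and Ugt1a1 had 0 counts in all 9 libraries. In CVST_Ligation vs CVST 1 was higher (Amigo2) and 1 lower (H2-T23), followed by Gbp2, with a median log2 fold change of -0.16. In CVST_Ligation_4_PBA vs CVST_Ligation 1 was higher (Iigp1), followed by Fbln5 and Srgn, with a median of 0.47. In CVST_Ligation_4_PBA vs CVST 4 were higher and 1 lower, with Amigo2, H2-T23 and Fbln5 at the smallest p and a median of 0.21. Without CVST_Ligation_4_PBA replicate 3 the A1-type genes gave 2 higher and a median of 0.13 against CVST_Ligation, and 2 higher, 1 lower and a median of 0.10 against CVST. Without CVST_Ligation replicate 2 they gave 5 higher and 1 lower in CVST_Ligation_4_PBA vs CVST_Ligation, with a median of 0.63 and with 5.37% and 4.64% of all genes higher and lower, and 2 higher and 1 lower in CVST_Ligation vs CVST, with a median of -0.48. Amigo2, an adhesion protein, measured 9.94, 10.4 and 23.1 CPM in CVST, 32.4, 32.1 and 24.6 CPM in CVST_Ligation and 37.7, 47.8 and 38.3 CPM in CVST_Ligation_4_PBA, and differed by 1.52 on the log2 scale (standard error 0.31, adjusted p = 0.0684) in the last comparison. Amigo2 was higher in all 6 ligated mice than in the CVST mice. H2-T23, a nonclassical class I histocompatibility gene, measured 36.6, 27.4 and 30.9 CPM in CVST, 11, 26.2 and 19.3 CPM in CVST_Ligation and 15.2, 15.7 and 19.8 CPM in CVST_Ligation_4_PBA, lower in all 6 ligated mice than in the CVST mice. Of the A2-type genes 11 of 12 were tested and none (0) was past an unadjusted p of 0.05 in any comparison, though without CVST_Ligation_4_PBA replicate 3 it was 3 and 4, all lower, in the comparisons with CVST_Ligation and with CVST, where 1.83% and 7.37% of all genes were lower in the same fits. The A2-type medians were -0.64, 0.13 and 0.13, in the order of the comparisons above, but -0.12 in the first without CVST_Ligation replicate 2, and -1.38 and -1.30 in the other 2 without CVST_Ligation_4_PBA replicate 3. In the main fit B3gnt5, Ptgs2 and S100a10, then Cd14, Tgm1 and B3gnt5, then Cd109, S100a10 and Ptgs2 had the smallest p.

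Of 15 genes of the gp130, JAK and STAT3 pathway, through which cytokines of the interleukin 6 family induce Gfap, 13 were tested. None (0) was past an unadjusted p of 0.05 in CVST_Ligation vs CVST, where Cntfr, Lifr and Clcf1 had the smallest p and the median log2 fold change was -0.052. The ligand gene Cntf was higher with 4-PBA against either group, with medians of -0.035 and -0.087, and Il6ra and Jak1, or Cntfr and Il6st, came next. Cntf measured 2.51, 2.44 and 3.53 CPM in CVST, 1.69, 1.96 and 2.02 CPM in CVST_Ligation and 2.55, 25.9 and 2.86 CPM in CVST_Ligation_4_PBA. Only CVST_Ligation_4_PBA replicate 2 was high, and the other treated libraries lay above CVST_Ligation but within the range of CVST. Stat3, the transcription factor of the pathway, measured 162, 97.9 and 55.4 CPM in CVST, 91.6, 74.3 and 119 CPM in CVST_Ligation and 56.2, 92 and 149 CPM in CVST_Ligation_4_PBA, and Socs3, its feedback inhibitor, 7.27, 4.43 and 3.58 CPM in CVST, 2.81, 2.27 and 6.68 CPM in CVST_Ligation and 0.867, 2.57 and 11.8 CPM in CVST_Ligation_4_PBA. Within CVST_Ligation_4_PBA both were highest in replicate 3 and lowest in replicate 1, as many reactive genes were. Over all libraries that held for Socs3 only, as Stat3 was highest in CVST replicate 1 and lowest in CVST replicate 3. Without CVST_Ligation_4_PBA replicate 3 the list had 1 higher and 2 lower (Socs3 and Clcf1) in CVST_Ligation_4_PBA vs CVST. The ligand genes Il6 and Osm had 0 counts in some libraries. Stat3 and Socs3 were chosen after their values were seen.

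Of 30 other astrocyte identity genes, 9 were higher and 0 lower in CVST_Ligation vs CVST, 0 were past the unadjusted threshold in CVST_Ligation_4_PBA vs CVST_Ligation, and 13 were higher and 1 lower, Chrdl1, in CVST_Ligation_4_PBA vs CVST. Their medians were 0.44, 0.12 and 0.58, beside the 5.47% and 8.07% of all genes tested that were higher in the first and last comparisons. Without CVST_Ligation replicate 2 the 9 became 5, with a median of 0.27, and between the ligated groups 2 were higher without that library and 1 without CVST_Ligation_4_PBA replicate 3. The smallest p belonged to Slc6a11, Ptprz1 and Nkain4, then to Apoe, Hes5 and Cst3, then to Slc6a11, Nkain4 and Agt. Slc6a11, a GABA transporter of astrocytes, measured 24.9, 71.5 and 46.5 CPM in CVST, 161, 289 and 116 CPM in CVST_Ligation and 267, 211 and 196 CPM in CVST_Ligation_4_PBA, higher in all 6 ligated mice than in the CVST mice. On the log2 scale it differed by 1.99 (standard error 0.41, adjusted p = 0.25) in CVST_Ligation vs CVST and 2.24 (standard error 0.41, adjusted p = 0.0545) in CVST_Ligation_4_PBA vs CVST. Ptprz1, a receptor phosphatase, measured 151, 185 and 184 CPM in CVST, 349, 270.3 and 251 CPM in CVST_Ligation and 292, 279.7 and 206 CPM in CVST_Ligation_4_PBA. Nkain4, which interacts with the sodium pump, measured 8.12, 15.6 and 16.2 CPM in CVST, 26.4, 40.4 and 23.4 CPM in CVST_Ligation and 38.9, 32.9 and 27.9 CPM in CVST_Ligation_4_PBA. For these genes too the CVST libraries were the low ones.

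Astrocytes of the telencephalon, which includes cortex and striatum, and those of the regions behind it differ in some of their genes. Of 5 genes known from astrocytes outside the telencephalon, 4 were higher in CVST_Ligation vs CVST, 0 were past the unadjusted threshold in CVST_Ligation_4_PBA vs CVST_Ligation and 5 were higher in CVST_Ligation_4_PBA vs CVST. Their medians were 1.99, 0.25 and 2.24, and Irx2, Slc6a11 and Agt had the smallest p in the first and last comparisons, Irx2, Itih3 and Agt in the other. Their summed level was 113, 214 and 250.2 CPM in CVST, 391, 866 and 353 CPM in CVST_Ligation and 687, 705 and 666 CPM in CVST_Ligation_4_PBA. Agt, which encodes angiotensinogen, measured 3.99, 7.14 and 47.4 CPM in CVST, 72.6, 178 and 64.8 CPM in CVST_Ligation and 181, 177 and 149 CPM in CVST_Ligation_4_PBA. Irx2, a transcription factor of the hindbrain and midbrain, measured 3.14, 37.4 and 2.07 CPM in CVST_Ligation and 2.6, 2.48 and 9.37 CPM in CVST_Ligation_4_PBA, and was at 0.163 CPM or below in the CVST libraries. It was past the unadjusted threshold in CVST_Ligation vs CVST without CVST_Ligation replicate 2 too, as 3 of the 5 genes were, and 2 of the 5 were then higher in CVST_Ligation_4_PBA vs CVST_Ligation. Slc6a11, Slc6a9 and Agt are also among the other identity genes, so the counts are not independent.

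The other cell types and regions of the brain were read in the same way, since their genes show what else differed between the libraries. Slc17a7, a vesicular glutamate transporter of cortical excitatory neurons, measured 1761, 1419.8 and 1974 CPM in CVST, 1433, 419 and 1406 CPM in CVST_Ligation and 519.8, 567 and 732 CPM in CVST_Ligation_4_PBA. Tbr1, a transcription factor of the same neurons, measured 130.4, 147 and 74.3 CPM in CVST, 43.1, 18.6 and 63.4 CPM in CVST_Ligation and 21.3, 19.8 and 27.6 CPM in CVST_Ligation_4_PBA. Both were low in CVST_Ligation replicate 2 and in the CVST_Ligation_4_PBA libraries, and Tbr1 was lower in all 6 ligated mice than in the CVST mice. Ppp1r1b, a phosphatase inhibitor of striatal neurons, measured 514, 387 and 258 CPM in CVST, 60.6, 67.6 and 104 CPM in CVST_Ligation and 102, 253 and 49.4 CPM in CVST_Ligation_4_PBA, with all ligated mice below all CVST mice. In CVST_Ligation vs CVST the log2 difference of Tbr1 was -1.49 (standard error 0.40, adjusted p = 0.308) and that of Ppp1r1b was -2.32 (standard error 0.53, adjusted p = 0.283).

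The sums of midbrain, thalamic and cerebellar genes were higher in all 6 ligated mice than in the CVST mice, the cerebellar sum by far the most in CVST_Ligation replicate 2. The hypothalamic sum was higher in all treated mice and overlapped between CVST_Ligation and CVST. All counts that follow stand beside 5.47%, 1.81% and 8.07% of all genes tested higher and 4.18%, 1.42% and 7.33% lower, in the order of the comparisons. Midbrain dopamine neurons, by 6 genes led by Ddc (55.2 CPM), summed to 17.9, 18.4 and 19.5 CPM in CVST, 204, 189.5 and 166 CPM in CVST_Ligation and 226, 224 and 227 CPM in CVST_Ligation_4_PBA. All 6 were higher in CVST_Ligation vs CVST (Slc18a2, Ddc, Chrna6) and in CVST_Ligation_4_PBA vs CVST (Slc18a2, Chrna6, Ddc), of which 3 and 5 rose past the adjusted threshold, and 0 were past the unadjusted threshold between the ligated groups (Chrna6, Th, Slc6a3). Slc6a3 and Pitx3 were at 0 in some libraries. Thalamic genes (6, led by Prkcd at 109.7 CPM) summed to 53.5, 56 and 63.3 CPM in CVST, 122, 195 and 217 CPM in CVST_Ligation and 429, 232 and 516 CPM in CVST_Ligation_4_PBA, with 4, 3 and 5 higher and 0 lower (Tcf7l2, Ntng1 and Prkcd, then Prkcd, Lef1 and Plekhg1, then Tcf7l2, Prkcd and Plekhg1). The 3 between the ligated groups became 1 without CVST_Ligation_4_PBA replicate 3. In CVST_Ligation_4_PBA vs CVST Tcf7l2 rose past the adjusted threshold (adjusted p = 0.0318). Hypothalamic genes (7, led by Pmch at 103 CPM) summed to 13.3, 5.1 and 42 CPM in CVST, 18.6, 5.36 and 56.3 CPM in CVST_Ligation and 297, 507 and 579 CPM in CVST_Ligation_4_PBA, with 2, 6 and 6 higher and 1, 0 and 0 lower (Pmch, Nkx2-1 and Hcrt, then Hcrt, Nkx2-1 and Pomc, then Hcrt, Pmch and Pomc), and Hcrt and Pmch rose past the adjusted threshold in the last. Hcrt, Oxt, Avp and Nkx2-1 were at 0 in some libraries. Of 7 cerebellar genes led by Zic1 (26.9 CPM) 5 were tested, with sums of 27.7, 27.4 and 37.3 CPM in CVST, 50.1, 869 and 74.2 CPM in CVST_Ligation and 64.6, 61.5 and 84.4 CPM in CVST_Ligation_4_PBA. All 5 were higher in CVST_Ligation vs CVST (Neurod1, Zic1, Pcp2), 2 were lower in CVST_Ligation_4_PBA vs CVST_Ligation (Neurod1, Pcp2, then Cbln1) and 0 passed in CVST_Ligation_4_PBA vs CVST (Zic1, Cbln1, Zic2), and Gabra6 and Cbln3 were at 0 in some libraries. Without CVST_Ligation replicate 2 only Neurod1 was higher in CVST_Ligation vs CVST, and in CVST_Ligation_4_PBA vs CVST_Ligation 2 were higher and 1 lower. Without CVST_Ligation_4_PBA replicate 3, 7 were tested and 4 were lower in the latter comparison (Neurod1, Pcp2, Cbln3 and Gabra6), beside 1.83% of all genes. CVST_Ligation replicate 2 thus held both the highest cerebellar level and the highest level of 13 identity genes. The part of these regions in the astrocyte values was not tested, and region and group cannot be told apart in these libraries.

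**Figure D4:**
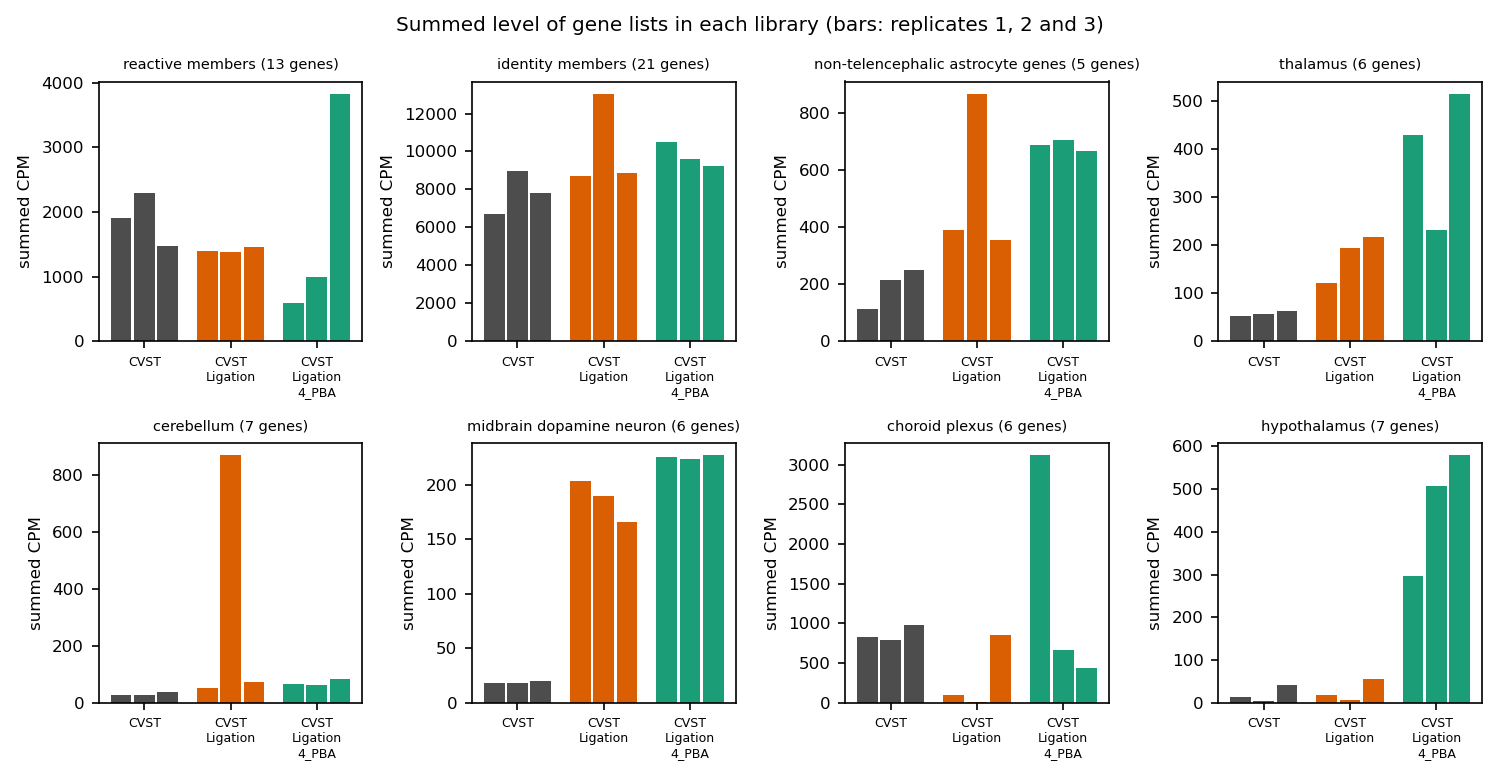
Summed CPM of 8 gene lists in each library, with 1 bar per library in the order of replicates 1, 2 and 3 and colours for the groups, each panel with its own axis from 0. The reactive sum is highest in CVST_Ligation_4_PBA replicate 3 (3830 CPM), and the cerebellar sum in CVST_Ligation replicate 2 (869.1 CPM).

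Neurons in general, by 8 genes led by Snap25 (1556 CPM), summed to 5129, 5722 and 4415 CPM in CVST, 4719, 5309 and 4994 CPM in CVST_Ligation and 4377, 5644 and 4104 CPM in CVST_Ligation_4_PBA. Of these genes 0, 0 and 1 were higher and 2, 2 and 2 lower (Rbfox3, Snap25 and Map2, then Snap25, Rbfox3 and Syt1, then Rbfox3, Snap25 and Nefl). Left without CVST_Ligation replicate 2, the list had 1 higher and 2 lower in CVST_Ligation vs CVST, and 1 higher and 3 lower between the ligated groups. Mbp, a myelin protein of oligodendrocytes, measured 1218, 1358 and 1604 CPM in CVST, 1169, 2729.8 and 1937 CPM in CVST_Ligation and 3305, 2388 and 2046 CPM in CVST_Ligation_4_PBA, and all CVST_Ligation_4_PBA libraries lay above all CVST libraries. Aif1, a calcium-binding protein of microglia, measured 19.1, 17.5 and 22.1 CPM in CVST, 10.1, 11 and 13.5 CPM in CVST_Ligation and 10.1, 9.34 and 16.7 CPM in CVST_Ligation_4_PBA. It was lower in all 6 ligated mice than in the CVST mice.

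The next lists hold genes of vessel cells and of the meninges. Endothelial genes (7, led by Flt1 at 71.4 CPM) summed to 294, 373 and 241 CPM in CVST, 297, 412 and 264 CPM in CVST_Ligation and 347, 317 and 359.8 CPM in CVST_Ligation_4_PBA, with 0 past the unadjusted threshold in each comparison (Flt1, Ly6c1 and Tek, then Ly6c1, Pecam1 and Cldn5, then Flt1, Tek and Slco1a4). The endothelial gene Ly6c1 was past it without CVST_Ligation replicate 2, lower in CVST_Ligation vs CVST and higher in CVST_Ligation_4_PBA vs CVST_Ligation. Mural cell genes (5, led by Vtn at 121 CPM) summed to 187, 227 and 168 CPM in CVST, 222, 329 and 182 CPM in CVST_Ligation and 286, 277 and 213 CPM in CVST_Ligation_4_PBA. Acta2, an actin of smooth muscle, was higher in both comparisons with CVST, in the first only with CVST_Ligation replicate 2 in the fit (next Rgs5 and Vtn, then Pdgfrb and Rgs5), 0 were lower, and 0 passed between the ligated groups (Kcnj8, Pdgfrb, Rgs5). Fibroblast and meningeal genes (5, led by Dcn at 63.7 CPM) summed to 89.5, 119 and 114 CPM in CVST, 177, 226 and 98.4 CPM in CVST_Ligation and 135, 351 and 116 CPM in CVST_Ligation_4_PBA. There 0, 0 and 1 (Lum) were higher and 0 lower, with Dcn, Col1a2 and Col1a1, then Lum, Col1a2 and Col3a1, then Lum, Dcn and Col1a2 at the smallest p. Between the ligated groups Col3a1 was higher without CVST_Ligation replicate 2 and Lum without CVST_Ligation_4_PBA replicate 3, and without the latter Col1a2 was higher beside Lum against CVST. The sum was highest in CVST_Ligation_4_PBA replicate 2. The part of vessel and meningeal cells in the reactive genes was not tested.

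Genes of the ventricles and the blood varied between single libraries. Choroid plexus genes (6, led by Ttr at 836 CPM) summed to 833, 788 and 978 CPM in CVST, 97.2, 13.2 and 857 CPM in CVST_Ligation and 3119, 666 and 443 CPM in CVST_Ligation_4_PBA, with 0, 3 and 2 higher and 0 lower (Aqp1, Folr1 and Ttr, then Clic6, Aqp1 and Kcne2, then Clic6, Kl and Kcne2), and Kcne2 at 0 in some libraries. The 3 and 2 became 4 and 4 without CVST_Ligation_4_PBA replicate 3. The highest choroid plexus sum was in CVST_Ligation_4_PBA replicate 1, where the reactive sum was lowest. Ependymal genes (4, led by Rarres2 at 26.7 CPM) summed to 37, 44.3 and 57.8 CPM in CVST, 27.2, 48.4 and 38.1 CPM in CVST_Ligation and 46.5, 48.6 and 51.6 CPM in CVST_Ligation_4_PBA, with 0 past the unadjusted threshold (Rarres2, Ccdc153 and Tmem212, then Rarres2, Foxj1 and Ccdc153, then Foxj1, Tmem212 and Ccdc153). With CVST_Ligation replicate 2 left out, Rarres2 was lower in CVST_Ligation vs CVST, and Rarres2 and Foxj1 were higher in CVST_Ligation_4_PBA vs CVST_Ligation. Red cell genes (5, led by Hbb-bs at 109 CPM) summed to 154, 186 and 161 CPM in CVST, 293, 329 and 152 CPM in CVST_Ligation and 209, 211 and 167 CPM in CVST_Ligation_4_PBA, with 2, 0 and 0 higher and 0 lower (Hbb-bs, Hbb-bt and Hba-a1, then Hba-a2, Hba-a1 and Hbb-bs, then Hbb-bt, Hbb-bs and Hba-a2). Without CVST_Ligation replicate 2, which had the highest globin sum, the 2 became 0. Of 8 neutrophil genes led by S100a9 (1.95 CPM) 3 were tested, with 0 past the unadjusted threshold (Mpo, S100a9 and S100a8, then S100a9, S100a8 and Mpo, then S100a8, Mpo and S100a9) and sums of 1.66, 5.59 and 4.07 CPM in CVST, 1.49, 4.07 and 3.38 CPM in CVST_Ligation and 2.71, 5.13 and 9.64 CPM in CVST_Ligation_4_PBA. Ngp was higher in CVST_Ligation_4_PBA vs CVST without CVST_Ligation_4_PBA replicate 3. Mpo, Ngp, Camp, Elane, Cxcr2 and Mmp8 were at 0 in some libraries. The reactive sum and the neutrophil sum were both highest in CVST_Ligation_4_PBA replicate 3, the latter at 9.64 CPM. Most of the neutrophil sum there came from S100a8 (3.81 CPM) and S100a9 (5.14 CPM), while Mpo was at the floor (0.114 CPM). The part of neutrophils in that library was not tested.

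On the mouse genome GRCm38 (GENCODE M21) the 34 genes lie on 15 chromosomes, so they are no cluster. Gfap lies on the minus strand at chr11:102887336-102900912 and Vim on the plus strand at chr2:13573927-13582826. Ndrg2, the gene with the smallest adjusted p of the 34, lies on the minus strand at chr14:51905271-51914158. Exons of 7 members (Cp, S1pr3, Aldh1l1, Slc1a2, Glul, Fgfr3 and Ttyh1) overlap exons of a gene on the opposite strand. The overlap takes 13.9% of the exonic bases of Fgfr3 (with G630022F23Rik), 11% of those of Aldh1l1 (with Gm15756), 6.65% of those of Ttyh1 (with 9430041J12Rik and D030047H15Rik) and under 5% for the others. The methods name an orientation mode of HISAT2, and how the counting step treated strands is not given in the sources used here, so the counts of these genes may hold reads of the other strand. In 5 members over 5% of all 50-base words of the transcripts also occur in transcripts of another gene. That share is 50.1% for Hspb1 (Hsp25-ps1), 12.6% for Glul (Glns-ps1), 11.6% for Fgfr3, 10% for Aldh1l1 and 6.9% for Serpina3n (Serpina3e-ps). Gfap, Vim, Timp1, Lcn2 and Ndrg2 share no such word with another gene.

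The study also measured Gfap by RT-qPCR, and its primers show which transcripts that assay reads. The forward primer lies in exon 3 at chr11:102895513-102895534 and the reverse primer in exon 4 at chr11:102894383-102894406, and they frame a product of 219 bases in 2 of the 3 annotated Gfap transcripts. The third transcript holds only the forward site. Both primers match the annotated transcripts over their full length:
Gfap forward: tggagagaaaggttgaatcgct
Gfap reverse: accgataccactcctctgtctctt

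Promoters were read for 4 motifs of factors known in astrocytes, on both strands, in the 250 bases before to 50 bases after the start given by RefSeq (GRCm38.p6). Of the 34 members 30 were matched by symbol, with 36 promoters; Sox9, Atp1b2, Clu and Sparcl1 were not matched. The STAT motif TTCNNNGAA was in 14.3% of the 14 promoters of reactive genes (Gfap and Steap4) and 18.2% of the 22 promoters of identity genes (Acsbg1, Aldoc, Ntsr2 and Slc1a3), against 8.3% of all 32851 promoters. The AP-1 motif TGANTCA was in 14.3% (Cp and Osmr) and 4.55% (Gja1), against 7.81%. The SOX motif AACAAT was in 14.3% (Cp and Timp1) and 0%, against 10.7%, and the NFI motif TTGGCA in 21.4% (Lcn2, Osmr and Steap4) and 9.09% (Aldoc and S100b), against 14.1%. No motif of the 4 contains another, and a match is a description of the letters, not a binding site.

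Of the 9 reactive genes that were highest in CVST_Ligation_4_PBA replicate 3, Gfap, Lcn2, Osmr and Timp1 hold at least 1 of these motifs, and their promoters are printed to show where. Capitals mark the STAT motif in Gfap (chr11:102897151-102897450, minus strand), the NFI motif in Lcn2 (chr2:32387690-32387989, minus strand), the NFI motif followed by the AP-1 motif in Osmr (chr15:6874264-6874563, minus strand) and the SOX motif in Timp1 (chrX:20869916-20870215, plus strand). Each is written 5′ to 3′ on the strand of its gene, and motifs of the other strand appear as their reverse complement:
Gfap: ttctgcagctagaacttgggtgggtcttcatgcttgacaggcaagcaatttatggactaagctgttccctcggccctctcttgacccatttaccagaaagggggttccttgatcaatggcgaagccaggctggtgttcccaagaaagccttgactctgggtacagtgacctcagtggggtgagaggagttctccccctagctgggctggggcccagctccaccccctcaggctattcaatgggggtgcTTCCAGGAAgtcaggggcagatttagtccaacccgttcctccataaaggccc
Lcn2: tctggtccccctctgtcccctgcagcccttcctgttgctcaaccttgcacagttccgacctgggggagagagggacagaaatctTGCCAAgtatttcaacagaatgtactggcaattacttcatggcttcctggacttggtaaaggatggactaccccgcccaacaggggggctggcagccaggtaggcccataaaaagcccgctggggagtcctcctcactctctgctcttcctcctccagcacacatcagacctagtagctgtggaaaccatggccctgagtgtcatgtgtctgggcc
Osmr: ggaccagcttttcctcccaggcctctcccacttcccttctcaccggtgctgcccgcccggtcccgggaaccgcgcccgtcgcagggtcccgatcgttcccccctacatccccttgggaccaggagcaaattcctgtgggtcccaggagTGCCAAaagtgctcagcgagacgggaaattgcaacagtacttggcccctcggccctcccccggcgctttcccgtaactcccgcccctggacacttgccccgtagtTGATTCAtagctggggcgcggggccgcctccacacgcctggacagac
Timp1: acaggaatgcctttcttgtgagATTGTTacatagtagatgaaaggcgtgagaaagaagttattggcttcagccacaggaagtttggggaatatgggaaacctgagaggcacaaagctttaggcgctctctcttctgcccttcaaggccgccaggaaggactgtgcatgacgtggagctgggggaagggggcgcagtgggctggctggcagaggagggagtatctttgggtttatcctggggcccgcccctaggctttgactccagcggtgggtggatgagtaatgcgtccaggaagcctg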

How the data were processed

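RNA from 9 mouse brains was sequenced in pairs of reads. According to the methods, the authors filtered reads with fastp, aligned them with HISAT2 (orientation mode), put transcripts together with StringTie and quantified with RSEM, without versions. The authors deposited counts per gene symbol and an expression matrix in FPKM, which the methods call TPM although its columns sum to between 780195 and 879696. The program that counted reads is not given in the sources used here.

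The steps from the counts used edgeR 4.0.16 in R 4.3.3: TMM scaling, filterByExpr by group (14746 genes), 1 quasi-likelihood model of all 9 libraries, and Benjamini-Hochberg adjustment over all genes tested, on simulated data first. The smallest exact permutation p of 3 mice against 3 is 0.1, so p values come from that model. The members and lists were chosen with earlier results of these data known. Described in full are members with an unadjusted p below 0.05, and Gfap, Vim, Serpina3n, Lcn2, Slc1a2 and Aldh1l1 in CVST_Ligation vs CVST; Timp1, Thbs4, Osmr and list genes other than the up to 3 of smallest p were picked after their values were seen. Cell types and regions are given by sums, and for some of them only by single genes picked after their values were seen, as part of their lists is not reported here. Alternatives were DESeq2 1.42.0, its size factors, total counts, other filters, the compared groups alone, a replicate block, limma 3.58.1 on FPKM with 1 or 0.1 added, and each library left out. Positions came from GENCODE M21, promoters from RefSeq. Plots used matplotlib 3.10.9 in Python 3.11.15.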

Additional observations from a re-analysis of the deposited data

How the results depend on the processing

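Under 16 alternatives per result the median log2 fold changes and counts of members came to 162 values close to those of the report and 30 that moved. For single genes, 206 values kept their direction and their side of an unadjusted p of 0.05, 37 kept the direction and lost that level, 9 kept it and gained that level, and 4 reversed. The cause of these differences was not tested.

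For members at an unadjusted p below 0.05, the replicate block gave 10 in CVST_Ligation vs CVST (9 higher, 1 lower), 2 in CVST_Ligation_4_PBA vs CVST_Ligation and 10 in CVST_Ligation_4_PBA vs CVST (9 higher, 1 lower). Of all genes the block called 7.14%, 1.95% and 9.8% higher and 4.83%, 1.59% and 8.13% lower in that order, more than the main fit. Replicate numbers were not taken to pair the mice, because the labels tie them to nothing. After removal of group means, r across genes was over 0.1 in 4 of 9 pairs of the same number (-0.058 to 0.33). Yet 7 of 9 libraries were closest to their own number in another group. Whether libraries of the same number shared a batch was not tested. A model of only the compared groups gave 3 higher and 3 lower in CVST_Ligation vs CVST, beside 4.31% and 3.91% of all genes. Vim and Serpina3n were among the lower ones, where the main fit gave 6 higher and 0 lower. That model of the compared groups gave 2 in CVST_Ligation_4_PBA vs CVST_Ligation and 8 in CVST_Ligation_4_PBA vs CVST. In the latter, total counts gave 5, DESeq2 6 and limma 8 with either 1 or 0.1 added to FPKM. All members of these last 2 comparisons were higher. In CVST_Ligation_4_PBA vs CVST these fits called 9.39%, 10.1%, 9.36%, 10.1% and 10.4% of all genes higher, and the compared groups alone 1.83% in CVST_Ligation_4_PBA vs CVST_Ligation. After adjustment DESeq2 called 1 member in CVST_Ligation_4_PBA vs CVST, beside 5.8% of all genes. The requirement of 10 counts in every library removed Steap4 and Timp1.

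Leaving out 1 library at a time gave 2 to 9 members in CVST_Ligation vs CVST, 0 to 4 in CVST_Ligation_4_PBA vs CVST_Ligation and 2 to 10 in CVST_Ligation_4_PBA vs CVST, and none (0) after adjustment in each. These fits called 4.65% to 6.53%, 0.985% to 5.37% and 5.58% to 8.32% of all genes higher. In the same order, the reactive medians ranged from -0.84 to -0.14, from -0.69 to 0.77 and from -1.18 to 0.57, and the identity medians from 0.16 to 0.53, from -0.13 to 0.22 and from 0.23 to 0.49. In CVST_Ligation vs CVST the log2 fold change of Gfap ranged from -0.46 to 0.088 and that of Lcn2 from -2.73 to 0.28, both reversed without CVST replicate 2. That of Slc1a2 ranged from -0.24 to 0.17, reversed without CVST replicate 3 (-0.15) and without CVST_Ligation replicate 1 (-0.24).

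With CVST_Ligation replicate 2 and CVST_Ligation_4_PBA replicate 3 both left out, an alternative chosen after seeing the data, 1, 7 and 15 members had an unadjusted p below 0.05 in the same order, and 3 passed adjustment in CVST_Ligation_4_PBA vs CVST. The identity median in CVST_Ligation vs CVST was then 0.16, and the reactive medians of the other comparisons were -0.88 and -1.17.

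With 3 mice a group and these depths, Steap4 and Timp1 rest on as few as 4 and 8 counts, and folds of genes near the floor of 3 counts are imprecise. Reads of near-identical copies and opposite strands could not be separated in the counts of Hspb1, Glul, Fgfr3, Aldh1l1 and Serpina3n. No library without thrombosis was compared.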
